A study of Rubus idaeus with 6 samples.

Results

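Within the mapped intervals for annual fruiting on linkage groups (LG) 3 and 4 of raspberry, 48 gene models were described as transporters, channels, carriers, antiporters, exchangers or ABC proteins, out of 19951 gene models with deposited values. They were taken by keyword from the descriptions of the Arabidopsis orthologues in the list of interval gene models that accompanies the study. Rows that named a kinase or auxin were left out, which removed 2 auxin transport rows. The list held here covers 974 gene models on LG3, of which 424 have a description, and 1024 on LG4, of which 917 have one. It gave 16 members on LG3 and 32 on LG4, with 44 different Arabidopsis orthologues. The description of each member is that of its Arabidopsis orthologue, and no function was measured in raspberry.

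RNA sequencing had been done on axillary buds of ‘Heritage’, an annual-fruiting (AF) cultivar that can flower on shoots in their first season, and of ‘Wakefield’, a biennial-fruiting (BF) cultivar. Both cultivars grew in the field, and the buds came from 5 to 10 nodes below the apex on November 5, which is late spring in New Zealand. Each cultivar had 3 biological replicates, numbered 62, 63 and 64 for ‘Heritage’ and 59, 60 and 61 for ‘Wakefield’. Each fruiting habit was represented by a single cultivar sampled on a single date, so that fruiting habit and any other difference between the cultivars cannot be told apart. No treatment was applied. Whole buds were used, so that fewer cells of a type and less RNA per cell cannot be told apart either.

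Transporters and channels are membrane proteins that move solutes across the plasma membrane and the membranes of organelles. Channels let ions pass down their gradient, carriers couple the movement of a solute to a proton gradient or exchange one solute for another, and ABC proteins use ATP. In a bud they supply growing tissue with sugars, amino acids, nitrate and metal ions that arrive through the vascular tissue, and they hold the ion balance of its cells.

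The deposited values are reads per gene model divided by a size factor per library, called normalized counts below, with no correction for gene length. Levels are therefore compared between cultivars for the same gene model and not between gene models. Recovered reads per library ranged from 11334885 to 12704172 in ‘Heritage’ and from 7345603 to 14977596 in ‘Wakefield’. Differences are log2 fold changes of ‘Heritage’ minus ‘Wakefield’ on log2(normalized count + 1), which understates changes of low counts, with the standard error (SE) and the adjusted p of limma over all 17898 gene models with at least 10 in at least 3 libraries. Of the markers of photosynthetic leaf tissue, 5 of 7 were lower in ‘Heritage’ in limma, and all 7 were in edgeR and DESeq2. Of all gene models tested, 17.5% were lower in ‘Heritage’ in limma. All 7 had lower values in ‘Heritage’ with no overlap between the cultivars, against 26.2% of all gene models tested. The sum of the 7 was 9170 to 10380 in ‘Heritage’ and 14878 to 20528 in ‘Wakefield’. GHR1, the only marker used for guard cells, was also lower in ‘Heritage’ (log2 fold change -0.81, adjusted p 0.00919 in limma). KAT1, a member that acts in guard cells in Arabidopsis, overlapped between the cultivars (adjusted p 0.568 in limma), so guard cells are not described by GHR1 alone. None of 6 vascular markers passed the test in limma, edgeR or DESeq2 or at an unadjusted p under 0.05. ATML1, a gene of the epidermis and the outer meristem layer, had 350.4 to 469.8 in ‘Heritage’ and 574 to 965 in ‘Wakefield’, with no overlap (log2 fold change -0.76, adjusted p 0.0527 in limma, 0.0253 in edgeR and 0.00363 in DESeq2). The part of tissue composition in the results on transporters was not tested.

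Of the 47 members tested, 11 passed an adjusted p under 0.05 in limma, 4 of them higher and 7 lower in ‘Heritage’. That is 23.4% of the members, against 33.5% of all gene models tested. Split by direction, 8.51% of the members were higher and 14.9% lower in ‘Heritage’, against 16.0% and 17.5% of all gene models. Under the stricter rule for differentially expressed genes (DEGs), which asks for an adjusted p under 0.01 together with an absolute log2 fold change over 1, 5 members were lower and 0 were higher in ‘Heritage’. The 5 are 10.6% of the members, against 9.62% of all gene models, or 5.17% for lower and 4.45% for higher alone. At an unadjusted p under 0.05, 1 member had a log2 fold change above 1 in limma, and as DEGs higher in ‘Heritage’ edgeR called 0 members and DESeq2 called 1. In limma the share of members that passed was below that of all gene models, and the share of DEGs was close to it. The shortfall depended on the tool. DESeq2 called 17 of 48 members, against 35.5% of all gene models, and edgeR called 14 of 47, against 37.4%. The median log2 fold change was -0.00 in the members and 0.01 in all gene models, and the median absolute log2 fold change was 0.41 and 0.38. The 7 members lower in ‘Heritage’ had log2 fold changes of -1.07 or below, while of the 4 higher members only OCT2 went above 1.

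The counts changed when single libraries were left out, for the members and for all gene models. Without ‘Heritage’ library 62, 63 or 64 the members higher in ‘Heritage’ numbered 1, 0 and 1, and without ‘Wakefield’ library 60 they numbered 2. In the same fits the share of all gene models that passed in either direction was 19.7%, 17.2% and 23.2% without ‘Heritage’ library 62, 63 or 64 and 24.3% without ‘Wakefield’ library 60, against 33.5% with all libraries. The lower DEGs numbered 2, 1 and 1 without ‘Heritage’ library 62, 63 or 64 and 2 without ‘Wakefield’ library 60. The count of lower members stayed between 6 and 8 in limma when any library was left out.

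**Figure D1:**
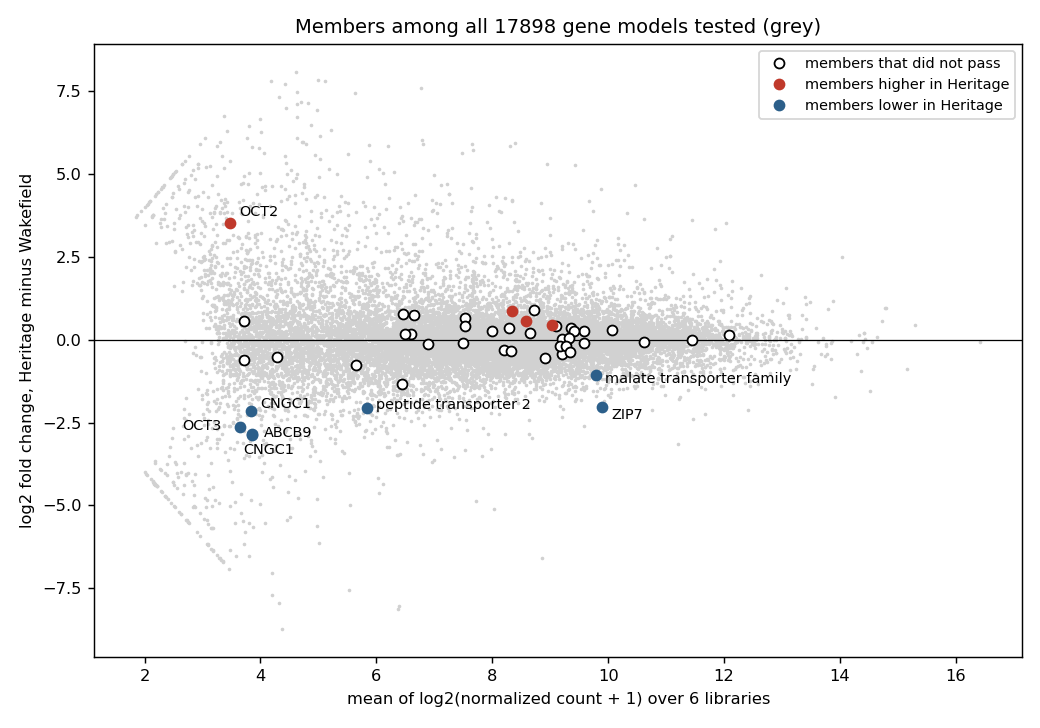
Log2 fold change (vertical axis, ‘Heritage’ minus ‘Wakefield’) of the 47 members among all 17898 gene models tested, against the mean of log2(normalized count + 1) over 6 libraries. Filled points are the 4 members higher (red) and 7 lower (blue) in ‘Heritage’, open points the 36 that did not pass, and grey points all gene models. Most members lie close to 0, and OCT2, OCT3, ABCB9 and the CNGC1 gene models lie among the gene models with low counts.

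Among the 13 members for metal and other ions, 0 were higher and 3 lower in ‘Heritage’ of the 12 tested in limma. edgeR gave the same numbers, DESeq2 gave 0 and 4, and at an unadjusted p under 0.05 limma gave 1 and 3. Such a p was found in limma for 8245 of all 17898 gene models tested. In limma 25% of the ion members passed, against 33.5% of all gene models tested, or 17.5% for lower alone. The lower ones were ZIP7 and 2 gene models for a cyclic nucleotide-gated channel. ZIP7 (Ro03_G05832, LG3 at 36314600 bp of the black raspberry genome ORUS 4115-3 v3.0) has an Arabidopsis orthologue in the family that carries zinc and iron into cells. Its normalized counts were 500.1, 441 and 476 in ‘Heritage’ libraries 62, 63 and 64, against 1399.6, 2016 and 2549.9 in ‘Wakefield’ libraries 59, 60 and 61. Every ‘Heritage’ library was lower than every ‘Wakefield’ library, and the ‘Wakefield’ libraries differed more among themselves. ZIP7 averaged 472 ± 29.9 in ‘Heritage’ and 1988 ± 576 in ‘Wakefield’ (± SD, 3 libraries each), 4.21 times higher in ‘Wakefield’, with a log2 fold change of -2.03 (SE 0.23, adjusted p 0.00266 in limma).

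CNGC1, a cyclic nucleotide-gated channel that conducts cations and is gated by cyclic nucleotides and calmodulin in Arabidopsis, is the orthologue of 3 gene models on LG3, at 36917153 bp (Ro03_G10862), 37861986 bp (Ro03_G17154) and 38725921 bp (Ro03_G33052). Ro03_G17154 had 3.14, 5.45 and 4.76 in ‘Heritage’ libraries 62, 63 and 64, against 29.1, 40.4 and 46.0 in ‘Wakefield’ libraries 59, 60 and 61. These rest on 3, 6 and 5 reads in ‘Heritage’ and on 31, 26 and 62 reads in ‘Wakefield’. The gap between the cultivars was wider than the spread in either of them, and the adjusted p was 0.00118 in limma (log2 fold change -2.86, SE 0.24). Ro03_G10862 had 2.09, 10.9 and 7.62 in ‘Heritage’ libraries 62, 63 and 64, against 27.2, 29.5 and 31.2 in ‘Wakefield’ libraries 59, 60 and 61. It was lower in all ‘Heritage’ libraries, of which library 62 had the fewest reads, with a log2 fold change of -2.15 (SE 0.49, adjusted p 0.0215 in limma). Its call was lost without ‘Wakefield’ library 60 (adjusted p 0.0584 in limma) or 61 (adjusted p 0.0553).

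Ro03_G33052, the remaining CNGC1 gene model, was the only member below the filter. It had 0, 0 and 1.90 in ‘Heritage’ libraries 62, 63 and 64, against 5.64, 9.33 and 11.9 in ‘Wakefield’ libraries 59, 60 and 61. The ‘Heritage’ values rest on 2 reads in all and the ‘Wakefield’ values on 28. Scaled by the size factors, these pooled reads were 14.2 times higher in ‘Wakefield’ (exact Clopper-Pearson 95% interval 3.59 to 123, which covers counting error only). Added up, the 3 CNGC1 gene models had 5.23 to 16.4 in the ‘Heritage’ libraries and 61.99 to 89.1 in the ‘Wakefield’ libraries, with no overlap. How reads shared by related gene models were treated is not given in the paper or the labels, so the division of reads among these 3 is uncertain.

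The other 9 ion members tested had log2 fold changes between -0.62 and 0.29 and did not pass. They are the potassium channel KAT1, which acts in guard cells in Arabidopsis, the vacuolar iron transporter VIT1, OPT3, the magnesium transporter 3, the sodium/hydrogen antiporters NHX6 and NHX8, a gene model described as a sodium/hydrogen exchanger with a DUF1218 domain, and 2 gene models for the high-affinity potassium transporter HAK5. HAK5 at 830417 bp of LG4 (Ro04_G00436) had 280.4, 271 and 285 in ‘Heritage’ libraries 62, 63 and 64, against 209, 236 and 245 in ‘Wakefield’ libraries 59, 60 and 61. These did not overlap, but the log2 fold change of 0.28 (SE 0.10) had an adjusted p of 0.0856 in limma. HAK5 at 7420885 bp of LG4 (Ro04_G08881) had 6.28, 18.2 and 7.62 in ‘Heritage’ libraries and 12.2, 26.4 and 11.1 in ‘Wakefield’ libraries in the same order, which overlapped (log2 fold change -0.62, SE 0.47, adjusted p 0.346 in limma). The log2 ratio of these HAK5 gene models within a library differed by -0.90 between the cultivars (exact permutation p = 0.3). KAT1 (Ro03_G13450), singled out after its values were seen, had 15.7, 14.5 and 15.2 in ‘Heritage’ libraries 62, 63 and 64, against 69.5, 10.9 and 14.1 in ‘Wakefield’ libraries 59, 60 and 61. The ‘Wakefield’ mean of KAT1 rests on library 59, and the other ‘Wakefield’ libraries were slightly below all 3 ‘Heritage’ libraries (adjusted p 0.568 in limma).

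**Figure D2:**
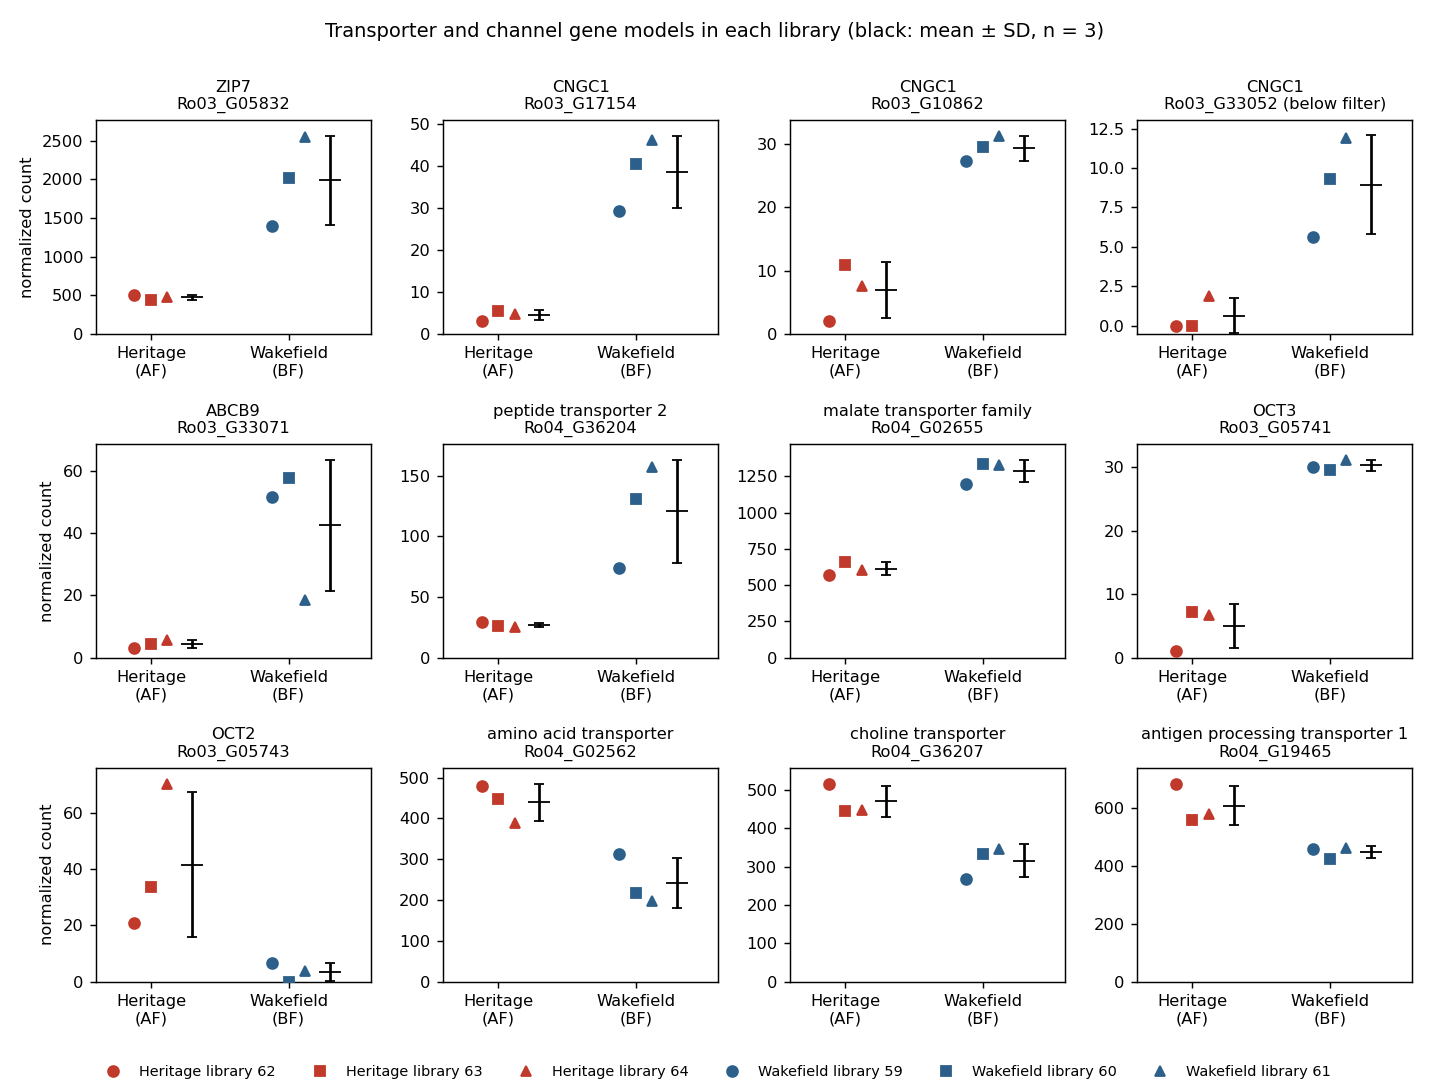
Normalized counts (vertical axis, from 0 or just below it) of the 11 members that passed and of the CNGC1 gene model below the filter, in ‘Heritage’ libraries (red, left) and ‘Wakefield’ libraries (blue, right), with the mean ± SD in black (n = 3). In all 12 panels the libraries of the cultivars do not overlap, and OCT2, amino acid transporter Ro04_G02562, the choline transporter and the antigen processing transporter 1 are higher in ‘Heritage’.

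Of the 13 members for nitrogen compounds (amino acids, peptides and nitrate), 1 was higher and 1 lower in ‘Heritage’, which is 15.4%, against 33.5% of all gene models. The lower one was a gene model for peptide transporter 2 (PTR2, Ro04_G36204, LG4 at 3614959 bp), whose Arabidopsis orthologue takes up small peptides together with protons. It had 29.3, 26.3 and 25.7 in ‘Heritage’ libraries 62, 63 and 64, against 74.2, 131 and 157 in ‘Wakefield’ libraries 59, 60 and 61. The lowest ‘Wakefield’ library was far above the highest ‘Heritage’ library, and the means were 27.1 ± 1.91 in ‘Heritage’ and 121 ± 42.5 in ‘Wakefield’ (± SD, 3 libraries each). The log2 fold change was -2.05 (SE 0.28, adjusted p 0.00474 in limma).

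The second PTR2 gene model (Ro04_G00443, LG4 at 802062 bp) had 1601, 1504 and 1473 in ‘Heritage’ libraries 62, 63 and 64, against 1363, 1737 and 1758 in ‘Wakefield’ libraries 59, 60 and 61. These overlapped, and the log2 fold change was -0.08 (SE 0.13, 95% interval -0.40 to 0.25, adjusted p 0.68 in limma). Within each library, the log2 ratio of Ro04_G36204 to Ro04_G00443, each with 1 added to its normalized count, was -5.72, -5.78 and -5.79 in ‘Heritage’ and -4.18, -3.72 and -3.47 in ‘Wakefield’. It was lower in every ‘Heritage’ library. The mean difference of these ratios was -1.97. An exact permutation test of it, two-sided and chosen after the data were seen, gave p = 0.1, the smallest that 3 against 3 libraries allow (adjusted p 0.15 over 3 such pairs). Its outcome was fixed beforehand, because Ro04_G36204 had already been seen to separate and Ro04_G00443 varied little beside that gap. The test therefore adds nothing to the call of Ro04_G36204.

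The member for nitrogen compounds that was higher in ‘Heritage’ was an amino acid transporter family gene model (Ro04_G02562, LG4 at 3995466 bp). It had 480.3, 448 and 389 in ‘Heritage’ libraries 62, 63 and 64, against 313, 216 and 197 in ‘Wakefield’ libraries 59, 60 and 61. The groups did not overlap, with a log2 fold change of 0.88 (SE 0.20, adjusted p 0.0214 in limma). The call was lost without ‘Heritage’ library 62 (adjusted p 0.0734 in limma) or 63 (0.0744), and without ‘Wakefield’ library 60 (0.0628) or 61 (0.0504).

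The other 11 members for nitrogen compounds had log2 fold changes between -1.34 and 0.78 and did not pass. Besides PTR2 Ro04_G00443 these were the amino acid transporters AAT1 and CAT5 for cationic amino acids, LHT2, BAT1 and 2 further amino acid transporter family gene models, the nitrate transporters NRT2.5 and nitrate transporter 1:2, and 2 EamA-like transporters. At an unadjusted p under 0.05, limma gave 3 of the 13 members for nitrogen compounds that were higher and 4 that were lower in ‘Heritage’. Of all 17898 gene models tested, 8245 had such a p in either direction. The tools differed for 3 of the members for nitrogen compounds. BAT1 (Ro04_G02746, log2 fold change -0.36) had an adjusted p of 0.0698 in limma and 0.0358 in edgeR, and amino acid transporter Ro04_G02644 (log2 fold change -1.34) had 0.0644 in limma and 0.0414 in edgeR. NRT2.5 (Ro04_G02810, log2 fold change 0.75 in limma), a high-affinity nitrate transporter, passed in DESeq2 (adjusted p 0.0487) but not in limma (0.101) or edgeR (0.0717). Ro04_G02644, singled out for that difference, had 32.4, 57.2 and 82.8 in ‘Heritage’ libraries 62, 63 and 64, against 87.4, 215 and 138 in ‘Wakefield’ libraries 59, 60 and 61. Its cultivars did not overlap, but ‘Heritage’ library 64 came close to ‘Wakefield’ library 59.

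None of the 5 members for sugars and nucleotides passed in limma or edgeR, or at an unadjusted p under 0.05 in limma, while DESeq2 called 1 of them lower in ‘Heritage’. That was UDP-galactose transporter 3 (Ro04_G00098), which carries nucleotide sugars into the secretory pathway and had the lowest log2 fold change of the 5 (-0.55, SE 0.23, adjusted p 0.114 in limma and 0.0397 in DESeq2). Sucrose transporter 2 (Ro04_G00094), a proton-coupled sucrose carrier, had 669, 674 and 602 in ‘Heritage’ libraries 62, 63 and 64, against 622, 645 and 621 in ‘Wakefield’ libraries 59, 60 and 61. The values overlapped closely, and the log2 fold change of 0.04 had a 95% interval of -0.19 to 0.28. The nucleobase-ascorbate transporter NAT7 (Ro04_G00360) averaged 593 ± 13.8 in ‘Heritage’ and 591 ± 77.4 in ‘Wakefield’ (± SD, 3 libraries each), with a log2 fold change of 0.01 and a 95% interval of -0.29 to 0.31. The hexose-proton symporter STP1 had a log2 fold change of 0.36 (95% interval -0.23 to 0.95), and the nucleoside transporter ENT1 one of 0.26 (95% interval -0.08 to 0.59).

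Among the 6 members for organic cations, organic acids and inorganic anions, 2 were higher and 2 lower in ‘Heritage’ (66.7%, against 33.5% of all gene models). The organic cation/carnitine transporters OCT3 and OCT2, membrane carriers of positively charged organic solutes, were among them, in opposite directions, although their gene models lie 13295 bp apart on LG3 (Ro03_G05741 at 35745086 bp and Ro03_G05743 at 35758381 bp). OCT3 had 1.05, 7.27 and 6.67 in ‘Heritage’ libraries 62, 63 and 64, against 30.1, 29.5 and 31.2 in ‘Wakefield’ libraries 59, 60 and 61. The ‘Heritage’ values rest on 1, 8 and 7 reads and the ‘Wakefield’ values on 32, 19 and 42, with means of 4.99 ± 3.43 in ‘Heritage’ and 30.3 ± 0.838 in ‘Wakefield’ (± SD, 3 libraries each). The ‘Wakefield’ libraries were nearly equal and all above ‘Heritage’ (log2 fold change -2.63, SE 0.54, adjusted p 0.0162 in limma), and the call held without any one library (adjusted p up to 0.0457 in limma).

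OCT2 had 20.9, 33.6 and 70.5 in ‘Heritage’ libraries 62, 63 and 64, against 6.58, 0 and 3.71 in ‘Wakefield’ libraries 59, 60 and 61. It was higher in every ‘Heritage’ library, but these differed by more than 3-fold among themselves, and ‘Wakefield’ library 60, the shallowest, had 0 reads, which allows up to 4.67 normalized counts (3 reads). The means were 41.7 ± 25.7 in ‘Heritage’ and 3.43 ± 3.30 in ‘Wakefield’ (± SD, 3 libraries each), 12.2 times higher in ‘Heritage’, with a log2 fold change of 3.52 (SE 0.83, adjusted p 0.0241 in limma). The call was lost without ‘Heritage’ library 63 (adjusted p 0.0712 in limma) or 64 (0.0713) and with a pseudocount of 0.1 (0.073). Within each library the log2 ratio of OCT2 to OCT3, each with 1 added, was 3.42, 2.07 and 3.22 in ‘Heritage’ and -2.04, -4.93 and -2.77 in ‘Wakefield’. This ratio was above 0 in all ‘Heritage’ libraries and below 0 in all ‘Wakefield’ libraries, and with no correction for gene length only its difference between the cultivars can be read. The mean difference of these log2 ratios was 6.15, and the same exact permutation test gave p = 0.1, its smallest value (adjusted p 0.15). That outcome was fixed beforehand, because OCT2 and OCT3 had already been seen to separate in opposite directions. The test therefore adds nothing to their calls. The summed values of both, 22.0 to 77.1 in ‘Heritage’ and 29.5 to 36.6 in ‘Wakefield’, overlapped. The division of reads between these related neighbours is uncertain for the reason given for CNGC1.

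**Figure D3:**
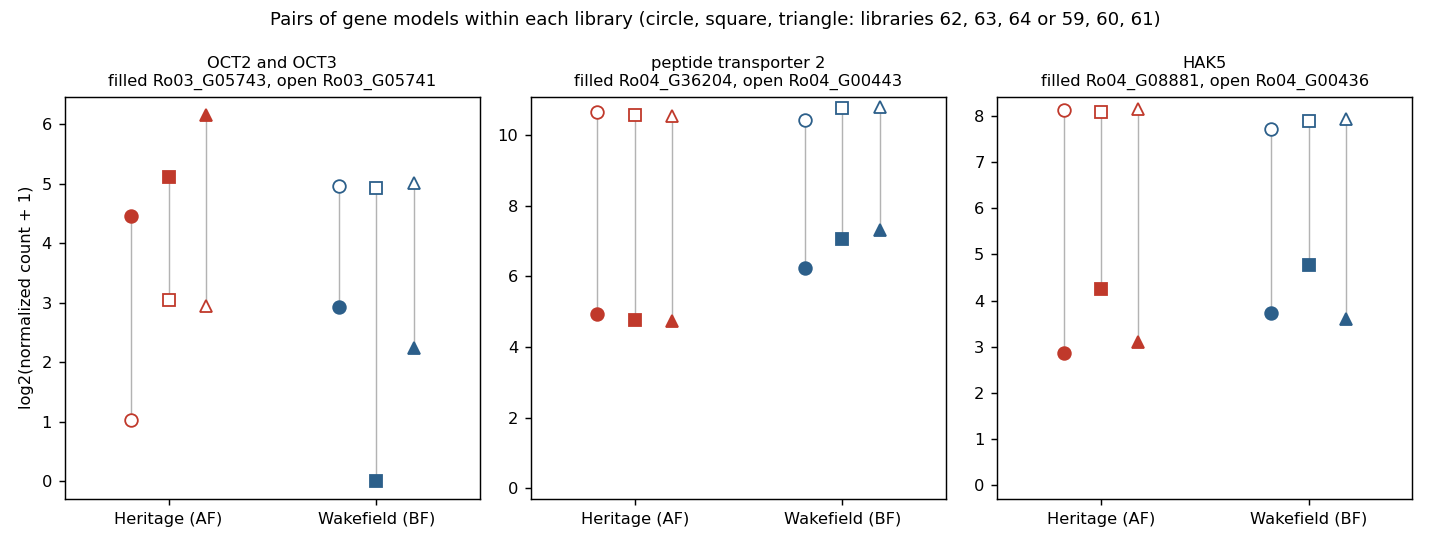
log2(normalized count + 1) of pairs of gene models in each library, for OCT2 and OCT3, for both peptide transporter 2 gene models and for both HAK5 gene models, with ‘Heritage’ (red) left of ‘Wakefield’ (blue) and a grey line joining the values of the same library. The filled symbol (OCT2 in its panel) is above the open one (OCT3) in all 3 ‘Heritage’ libraries and below it in all 3 ‘Wakefield’ libraries, while in the other pairs the order is the same in both cultivars.

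A gene model of the aluminum activated malate transporter family (Ro04_G02655, LG4 at 4571342 bp), whose relatives are channels for malate and other anions, was lower in ‘Heritage’. It had 572, 659.6 and 608 in ‘Heritage’ libraries 62, 63 and 64, against 1198, 1334 and 1329.9 in ‘Wakefield’ libraries 59, 60 and 61. The spread within either cultivar was small beside the gap between them, with mean values of 613 ± 43.9 in ‘Heritage’ and 1287 ± 77.7 in ‘Wakefield’ (± SD, 3 libraries each) and a log2 fold change of -1.07 (SE 0.11, adjusted p 0.00194 in limma).

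A plasma membrane choline transporter family gene model (Ro04_G36207, LG4 at 4534350 bp) had 517, 446 and 449 in ‘Heritage’ libraries 62, 63 and 64, against 267, 334.4 and 345.3 in ‘Wakefield’ libraries 59, 60 and 61. All ‘Heritage’ libraries were higher, with a log2 fold change of 0.58 (SE 0.14, adjusted p 0.0252 in limma). The call was lost without ‘Heritage’ library 62 (adjusted p 0.0802 in limma), 63 (0.0723) or 64 (0.0599). Sulfate transporter 91 (log2 fold change 0.41, adjusted p 0.0577 in limma) and the chloroplast phosphate transporter PHT2;1 (log2 fold change -0.34, adjusted p 0.202) did not pass.

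Of the 7 ABC proteins, 1 was higher and 1 lower in ‘Heritage’ (28.6%, against 33.5% of all gene models). ABCB9 (Ro03_G33071, LG3 at 39578064 bp), of the multidrug resistance type, had 3.14, 4.54 and 5.71 in ‘Heritage’ libraries 62, 63 and 64, against 51.7, 57.5 and 18.6 in ‘Wakefield’ libraries 59, 60 and 61. ‘Wakefield’ library 61 was the lowest of its cultivar and still above all ‘Heritage’ libraries. The log2 fold change was -2.87 (SE 0.45, adjusted p 0.00719 in limma), and the call held without any one library (adjusted p up to 0.031 in limma). The gene model described as transporter associated with antigen processing protein 1 (Ro04_G19465, LG4 at 5661181 bp), an ABC protein named after its animal relatives, had 685, 559.6 and 579 in ‘Heritage’ libraries 62, 63 and 64, against 457, 426.1 and 463 in ‘Wakefield’ libraries 59, 60 and 61. All ‘Heritage’ libraries were higher by a small margin (log2 fold change 0.43, SE 0.12, adjusted p 0.0349 in limma), and the call was lost whichever library was left out (adjusted p 0.0601 to 0.0935 in limma).

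The other 5 ABC proteins had log2 fold changes between -0.32 and 0.88. ABCC12 (Ro03_G24830), of the multidrug resistance-associated type, had a log2 fold change of -0.00 with a 95% interval of -0.41 to 0.40, and ABC1 (Ro03_G10584) one of -0.08 with a 95% interval of -0.37 to 0.21. ABC1 was taken by keyword and is not certain to be a membrane transport protein. The same holds for the sodium/hydrogen exchanger with a DUF1218 domain (Ro04_G02683). Neither passed, so the number of members that passed does not rest on them. The peroxisomal ABCD2 and an ABC-2 type transporter (Ro04_G00147) also did not pass. The other ABC-2 type transporter (Ro04_G02607), singled out after its values were seen, had 606, 558 and 546 in ‘Heritage’ libraries 62, 63 and 64, against 181, 306 and 525 in ‘Wakefield’ libraries 59, 60 and 61. ‘Wakefield’ library 61 was close to the ‘Heritage’ libraries and the other ‘Wakefield’ libraries were far below, with an adjusted p of 0.117 in limma and of 0.0213 without ‘Wakefield’ library 61.

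Of the 4 organelle carriers, 0 passed in limma, against 33.5% of all gene models tested. In limma 1 had an unadjusted p under 0.05, against 8245 of all 17898 gene models, and edgeR and DESeq2 each called 1. That was NAD+ transporter 2 (Ro04_G02721), a mitochondrial carrier in Arabidopsis, with a log2 fold change of 0.42 in limma (adjusted p 0.056 in limma, 0.0331 in edgeR and 0.0257 in DESeq2). VDAC1 (Ro04_G00118), the pore of the outer mitochondrial membrane, averaged 4577 ± 62.7 in ‘Heritage’ and 4223 ± 839 in ‘Wakefield’ (± SD, 3 libraries each), with a log2 fold change of 0.13 and a 95% interval of -0.25 to 0.52. The 2 other mitochondrial carriers had log2 fold changes of -0.12 (Ro04_G00039) and 0.17 (Ro04_G15188).

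**Figure D4:**
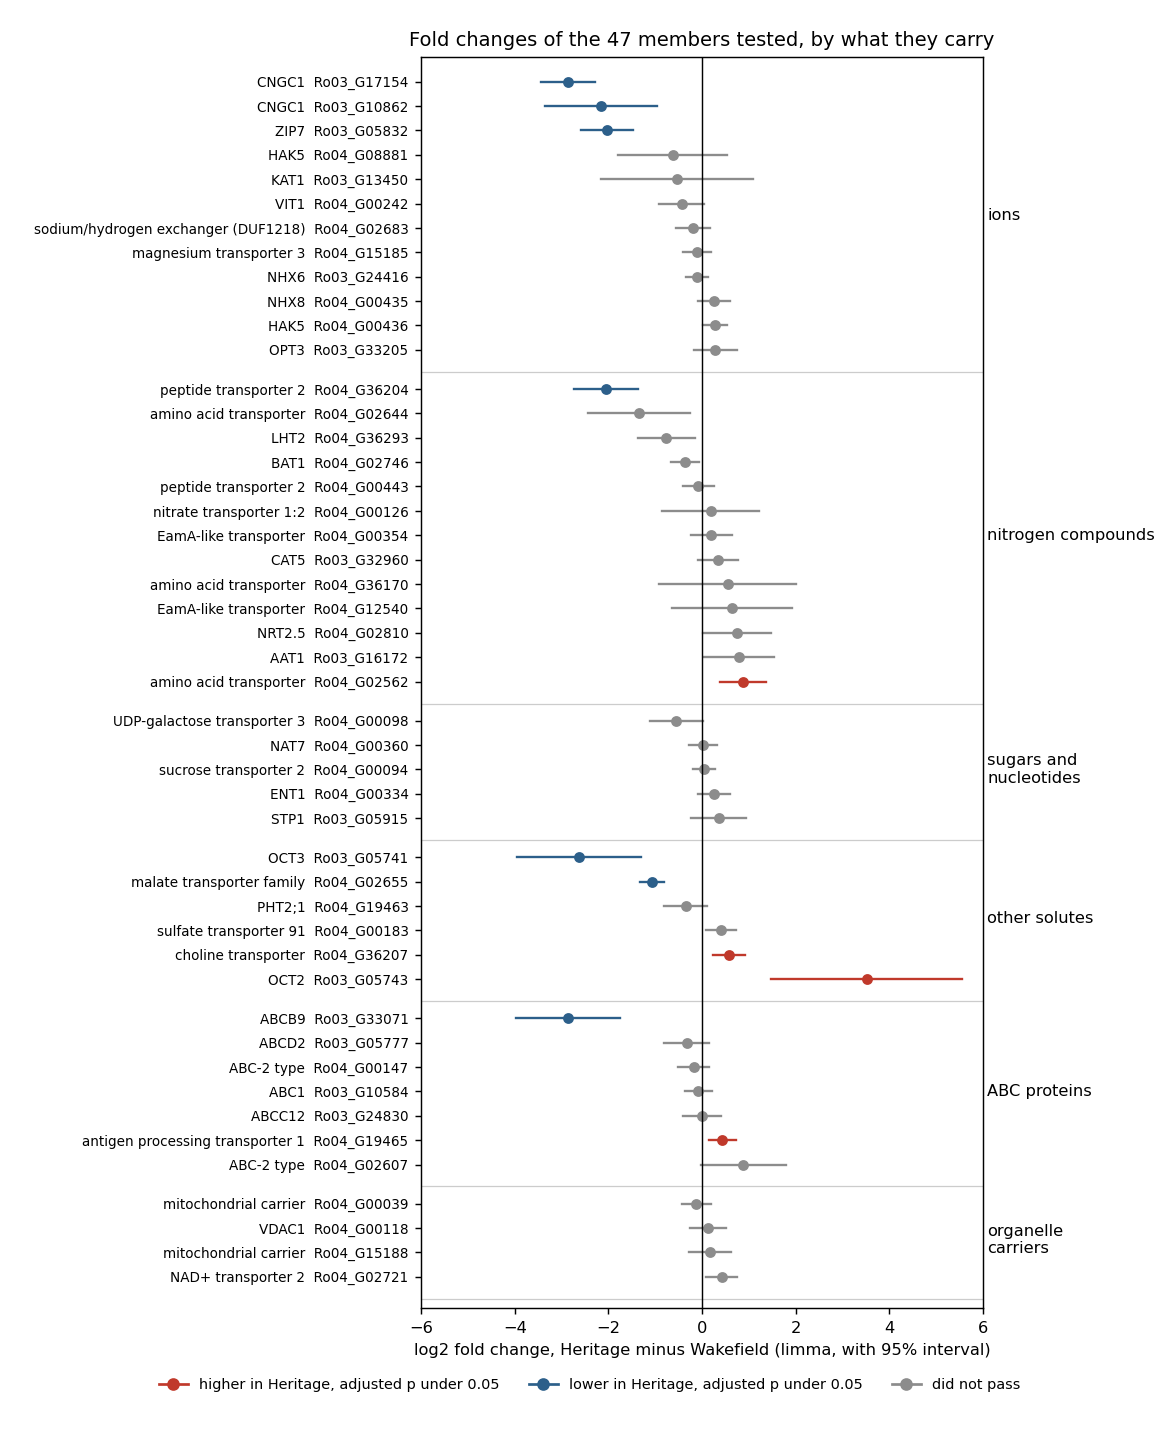
Log2 fold changes of the 47 members tested (horizontal axis, ‘Heritage’ minus ‘Wakefield’) with their 95% intervals from limma, grouped by what the Arabidopsis orthologue carries and sorted within a group. The 4 members higher in ‘Heritage’ are red, the 7 lower blue, and the 36 that did not pass grey.

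Of the 36 members that did not pass, 26 had a log2 fold change between -0.5 and 0.5, and for 25 the 95% interval lay within -1 and 1. For the other 11 the interval reached 1 or -1, so that it includes a 2-fold difference in at least one direction. The members with the most reads were, besides ZIP7 and those given above (VDAC1, ABCC12 and PTR2 Ro04_G00443), OPT3 (Ro03_G33205), a plasma membrane transporter needed for iron distribution in Arabidopsis. OPT3 averaged 1188 ± 114 in ‘Heritage’ and 986 ± 207 in ‘Wakefield’ (± SD, 3 libraries each), with a log2 fold change of 0.29 and a 95% interval of -0.17 to 0.74. Values of the cultivars did not overlap in 21 of the 47 members, 9 higher and 12 lower in ‘Heritage’, which is 44.7%. Of all gene models tested, 53.2% did not overlap, 27.0% higher and 26.2% lower in ‘Heritage’.

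Of 15 members tested on LG3, 1 was higher and 5 lower in ‘Heritage’, and of 32 on LG4, 3 were higher and 2 lower. That is 40.0% passed on LG3 and 15.6% on LG4, against 33.5% of all gene models tested. The difference between the linkage groups was not tested, and the descriptions on LG3 cover fewer of the gene models. The members that passed lay from 35745086 to 39578064 bp on LG3 and from 3614959 to 5661181 bp on LG4. The text of the paper narrows the LG4 locus to a smaller part of the mapped interval. That part holds 5 members, 1 higher (amino acid transporter Ro04_G02562) and 1 lower (PTR2 Ro04_G36204) in ‘Heritage’. The choline transporter, malate transporter family and antigen processing transporter 1 gene models, which also passed, lie outside it, from 4534350 to 5661181 bp.

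The spread between libraries was larger in ‘Wakefield’ than in ‘Heritage’ for 32 of the 47 members. The median SD of log2(normalized count + 1) over the members was 0.14 in ‘Heritage’ and 0.30 in ‘Wakefield’, and over all gene models tested it was 0.15 in ‘Heritage’ and 0.20 in ‘Wakefield’. ‘Wakefield’ library 59 was farthest from the median of its cultivar in 28 of the 47 members and ‘Heritage’ library 62 in 23. The EamA-like transporter Ro04_G12540, singled out after its values were seen, shows this spread with 249, 228 and 217 in ‘Heritage’ libraries 62, 63 and 64, against 64.8, 169.5 and 290.3 in ‘Wakefield’ libraries 59, 60 and 61. Its ‘Wakefield’ libraries lay on both sides of all ‘Heritage’ libraries.

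The intervals hold a further 18 gene models whose descriptions name transport in other words, such as permeases, major facilitator family and MATE efflux proteins. Of the 17 tested, 4 were higher and 2 lower in ‘Heritage’, which is 35.3% and close to the 33.5% of all gene models. Those higher were glutamate receptor 2.9 (Ro03_G05196, log2 fold change 0.93, adjusted p 0.00378 in limma), a ligand-gated cation channel, the potassium uptake permease KUP6 (Ro04_G00345, 0.57, adjusted p 0.0236), a major facilitator family gene model (Ro04_G02666, 1.47, adjusted p 0.0382) and a MATE efflux gene model (Ro04_G02767, 0.81, adjusted p 0.0247). Those lower were a multi-drug export gene model (Ro04_G00129, log2 fold change -0.72, adjusted p 0.00455 in limma) and a phosphate translocator-like gene model (Ro04_G15176, -0.76, adjusted p 0.00765). Glutamate receptor 2.9 had 245, 224 and 206 in ‘Heritage’ libraries 62, 63 and 64, against 124, 123 and 107 in ‘Wakefield’ libraries 59, 60 and 61, so that every ‘Heritage’ library was clearly higher. Along with OCT2, the major facilitator gene model was the only other of these transport gene models to pass with a log2 fold change above 1 in ‘Heritage’, with 927 to 1259 in ‘Heritage’ libraries and 212 to 640.1 in ‘Wakefield’ libraries. Its call was lost without ‘Heritage’ library 62, 63 or 64 or ‘Wakefield’ library 59 (adjusted p up to 0.117 in limma). That of KUP6 was lost without any library but ‘Wakefield’ 59 (up to 0.0675), and that of the MATE gene model without ‘Heritage’ library 62 or 63 or ‘Wakefield’ library 60 (up to 0.08).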

How the data were processed

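Per the labels and the paper, the authors trimmed paired reads (Trimmomatic), removed ribosomal RNA, aligned with STAR to black raspberry gene models and used DESeq2. The read counter and whether it used strand are not given in the sources here. The signal values that the authors deposited are counts over a size factor feach library. They were whole multiples of 1 read in 100% of cases (tolerance 0.001), and these reads were recovered for edgeR and DESeq2. The deposited log2 fold changes, standard errors, Wald statistics and p-values were not used.

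The main test was limma 3.58.1 (R 4.3.3) on log2(value + 1), two-sided, for gene models with 10 or more in 3 or more libraries, and Benjamini-Hochberg adjustment over 17898 gene models. Alternatives were edgeR 4.0.16 (TMM, RLE), DESeq2 1.42.0, pseudocounts of 0.1 and 10, no filter, a filter of 50, a mean-variance trend and each library left out. Tests were tried on simulated data. Python 3.11.15 made the tables and the exact permutation tests of ratios.

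Values per library are given for members that passed, that share an orthologue or are neighbours (OCT2, OCT3), or that were below the filter. Of the others, the 5 with the most reads and the 5 with the smallest fold change are named, with exceptions stated. Members and lists were chosen with earlier results of these data known. The interval list is held in part, to 7.4 Mb on LG4. Replicates of a cultivar differed beyond counting noise.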

Additional observations from a re-analysis of the deposited data

How the results depend on the processing

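No member that passed turned its direction under any alternative run, and 30 of the 47 members stayed on the same side of the threshold in all of them. Of the 11 that passed, 6 passed in every setting in which they were tested (ZIP7, CNGC1 Ro03_G17154, ABCB9, PTR2 Ro04_G36204, the malate transporter family gene model and OCT3). With each library left out, in limma or edgeR, members higher in ‘Heritage’ numbered 0 to 7 (main value 4), members lower 6 to 10 (7), DEGs higher 0 to 1 (0) and DEGs lower 1 to 5 (5). Over all gene models limma then gave 1341 to 2753 higher (2867) and 1742 to 3018 lower (3127), and edgeR 1908 to 3246 higher and 2139 to 3633 lower. DESeq2 gave 6 members higher and 11 lower of 48, with 1 DEG higher and 8 DEGs lower. A filter of at least 50, which leaves 38 members, gave 5 members higher, 3 lower and 3 DEGs lower. edgeR with TMM called 5 members higher and 9 lower of 47. The share of all gene models that passed in either direction was 35.5% in DESeq2, 37.3% with the filter of 50 and 37.4% in edgeR with TMM. The share of DEGs over all gene models was counted in the main fit only. Low read numbers limit OCT2, OCT3, CNGC1 and ABCB9, each with under 10 reads in several libraries. No paired analysis was made, because neither the labels nor the paper state whether replicates of the cultivars were paired. The causes of these changes were not tested, beyond the smaller number of libraries or gene models.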
